A study of Artemia parthenogenetic lineage with 6 samples.

Results

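The contigs ctg395, ctg2087, ctg1131, ctg887 and ctg756 carried 305 of the 112790 peaks that the authors' table lists for *Artemia* cysts in diapause and after its termination. The 5 contigs were chosen by name because the mean change in accessibility over their peaks was among the largest of all contigs in these same libraries. That change is therefore given as a description, with no test of it, and nothing is drawn from its size or sign. The peaks numbered 94 on ctg395, 62 on ctg2087, 41 on ctg1131, 43 on ctg887 and 65 on ctg756.

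ATAC-seq libraries of wild-type *A. parthenogenetica* cysts from Ebinur Lake were compared between ArR_5h, cysts taken 5 h after embryonic diapause termination (EDT), and ArD_0h, cysts in diapause. Each group held 3 biological replicates, all from 1 batch of cysts, so the p-values measure the spread between samples of that batch. Drying and cold storage had ended diapause, and the ArR_5h cysts were then soaked in ice-cold artificial seawater of 30‰ and kept in it under constant light. The protocol text gives 28 °C for this step, whereas the treatment labels give 28, 29 and 30 °C for ArR_5h replicates 1, 2 and 3, and the sources leave unsettled which holds for replicates 2 and 3. The ArD_0h cysts are labelled as untreated, although the same protocol text names both stages. The reads had been mapped to the assembly of a related species, *A. franciscana*, and its contig names and gene models are used here.

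An encysted *Artemia* embryo is a gastrula that has stopped development and nearly all metabolism, and it resumes both once diapause has ended and the cyst takes up water. ATAC-seq marks DNA that is not wrapped tightly in nucleosomes, because the Tn5 transposase cuts and tags it most easily there. A peak over a transcription start site (TSS) usually belongs to a promoter, and a peak far from any TSS can be an enhancer or another regulatory element. Neighbouring elements often lie in one stretch of chromatin and can open or close together. Because whole cysts were used, more nuclei with an open site and a wider opening in each nucleus cannot be told apart.

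The counts in peaks summed to between 5497870 and 9366963 in the ArR_5h libraries and between 5239170 and 6557546 in the ArD_0h libraries. They made up 13.7 to 14.8% of the library totals in ArR_5h and 10.6 to 12.96% in ArD_0h, where replicate 1 was lowest. Levels are given in CPM, counts per 1000000 counts in peaks after TMM scaling of the libraries. The log2 difference is ArR_5h minus ArD_0h from the edgeR fit of all peaks. A peak was called higher or lower at an adjusted p of at most 0.05 (edgeR's quasi-likelihood test, Benjamini-Hochberg over all 112211 tested peaks) together with a log2 difference over 1 in either direction. Of the 305 peaks, 303 passed edgeR's filter on low counts, and the 2 that did not lay on ctg1131 from 90332 to 90576 and on ctg395 from 1849502 to 1849709.

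Of the 303 tested peaks, 134 (44.2%) were called higher in ArR_5h, beside a background of 14.5% of all tested peaks. The lower calls numbered 17 (5.61%), beside a background of 15.2%. In 181 peaks (59.7%) every ArR_5h library lay above every ArD_0h library, and in 31 (10.2%) every ArR_5h library lay below. The backgrounds were 26.4% and 25.7%. A log2 difference above 0 was found in 230 peaks (75.9%), beside 47.9% of all tested peaks. Since the contigs were picked on this contrast, these shares had to depart from the background. Without ArR_5h replicate 2 the lower calls numbered 11, and without ArR_5h replicate 1 the higher calls numbered 98. Without ArD_0h replicate 1, which stood apart from the other ArD_0h libraries, 115 peaks were called higher and 20 lower.

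The 5 contigs together took 0.421, 0.389 and 0.374% of the counts in peaks in ArR_5h replicates 1, 2 and 3, and 0.208, 0.247 and 0.248% in ArD_0h replicates 1, 2 and 3. The groups did not overlap, which the choice of the contigs on this contrast favoured. The lowest of the 6 shares was that of ArD_0h replicate 1.

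The mean level over the tested peaks of a contig separated the groups on each of the 5. The choice of the contigs on this contrast favoured that, and how many other contigs separate the groups was not counted. On ctg395 the mean log2 CPM was 2.92, 2.75 and 2.76 in ArR_5h replicates 1, 2 and 3, against 1.78, 2.13 and 2.07 in ArD_0h replicates 1, 2 and 3. On ctg2087 it was 3.44, 3.34 and 3.27 in ArR_5h and 2.41, 2.59 and 2.66 in ArD_0h. In both, ArR_5h replicate 1 was highest and ArD_0h replicate 1 lowest of all 6 libraries. On ctg1131 it was 3.29, 3.27 and 3.16 in ArR_5h and 2.21, 2.65 and 2.76 in ArD_0h. On ctg887 it was 3.35, 3.21 and 3.19 in ArR_5h and 2.32, 2.73 and 2.73 in ArD_0h. On ctg756 it was 3.45, 3.30 and 3.29 in ArR_5h and 2.48, 2.84 and 2.80 in ArD_0h. The same replicates stood at the ends on these 3 contigs, and the plot of mean levels by library shows the gap between the groups on every contig.

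**Figure D1:**
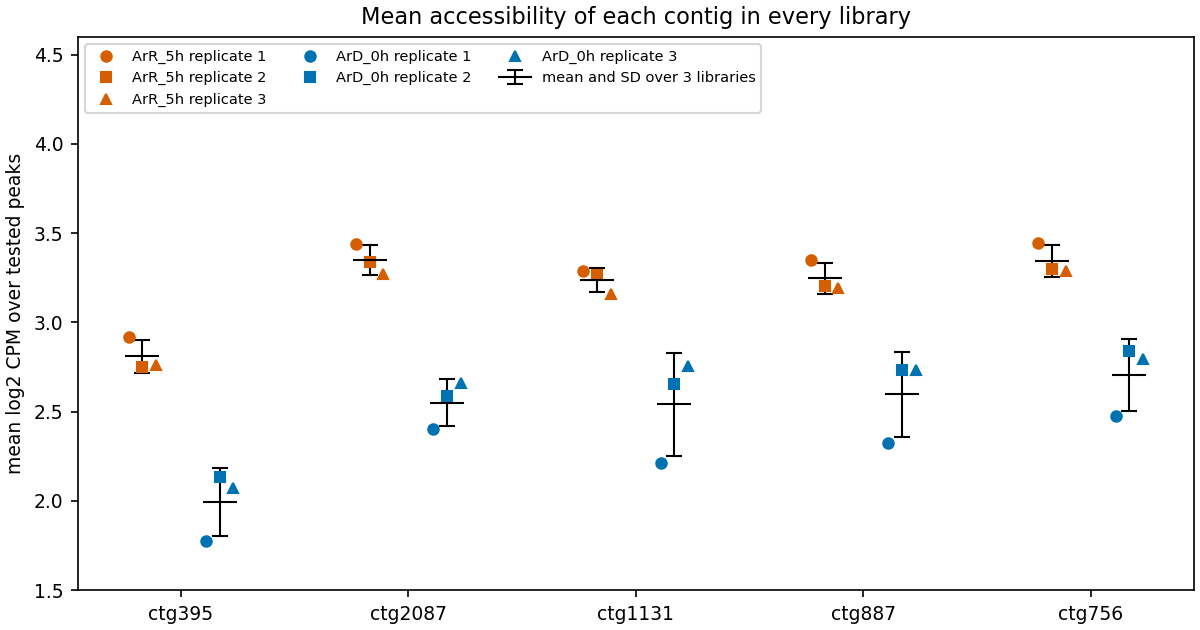
Mean log2 CPM over the tested peaks of each contig (vertical axis) for the 3 ArR_5h libraries (orange, left) and the 3 ArD_0h libraries (blue, right), with the mean and SD over 3 libraries in black. No ArR_5h library overlaps an ArD_0h library on these contigs, which were chosen on this contrast. ArD_0h replicate 1 (circles) lies lowest, at 1.78 to 2.48.

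The mean log2 difference was 0.83 on ctg395, 0.79 on ctg2087, 0.69 on ctg1131, 0.61 on ctg887 and 0.62 on ctg756. Among the 895 contigs with at least 40 tested peaks these means ranked 1, 2, 3, 6 and 5. The contig at rank 4, ctg442 with a mean of 0.62, was not among those chosen, and neither was ctg568 at rank 7 with 0.60. Over the other 890 contigs the means ran from -0.98 to 0.62 with a median of -0.05. The medians over peaks were above the means on all 5 contigs, at 1.07, 0.91, 0.92, 0.88 and 0.80 in the same order, and the SD over the peaks of one contig was 1.26, 0.67, 0.83, 1.04 and 1.03. The peaks of ctg2087 thus varied least among themselves and those of ctg395 most.

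The differences were larger against ArD_0h replicate 1 than against the other ArD_0h libraries. In the 9 pairs of 1 ArR_5h and 1 ArD_0h library, the mean difference over the 303 peaks was 0.90 to 1.06 in pairs with ArD_0h replicate 1 and 0.56 to 0.72 in pairs with replicates 2 and 3. Over all tested peaks the 9 pairs gave -0.05 to 0.04. ArD_0h replicate 1 was the lowest ArD_0h library at 167 of the 303 peaks (55.1%) and at 39.3% of all tested peaks. It was lowest at 100 of the 134 higher peaks (74.6%), beside 71.6% of all peaks called higher. Without it, the contig means were 0.73, 0.75, 0.58, 0.51 and 0.53 on ctg395, ctg2087, ctg1131, ctg887 and ctg756, and 42, 21, 10, 16 and 26 peaks were called higher. Of the 134 peaks called higher with all libraries, 107 were still called without ArD_0h replicate 1, with 42 of 46 on ctg395, 17 of 25 on ctg2087, 9 of 15 on ctg1131, 15 of 20 on ctg887 and 24 of 28 on ctg756.

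Along the contigs the positive differences came in stretches. Tested peaks were taken in order of position, and a gain run was a set of neighbouring peaks with log2 differences above 0. An interruption was a run of at least 2 neighbouring peaks below 0. The 230 positive peaks fell into 39 gain runs, and 55 of the 73 negative peaks fell into 19 interruptions, while 18 stood alone. Of the interruptions, 11 held 3 peaks or more. The longest gain runs held 17 peaks on ctg395, 24 on ctg2087, 11 on ctg1131, 10 on ctg887 and 16 on ctg756, ranks 78, 18, 244, 295 and 100 of 895, beside a median of 8 and a range of 1 to 45 on the other contigs. The interruptions were 1703 to 109016 bp long, and 7 lay on ctg395, 2 on ctg2087, 3 on ctg1131, 2 on ctg887 and 5 on ctg756.

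**Figure D2:**
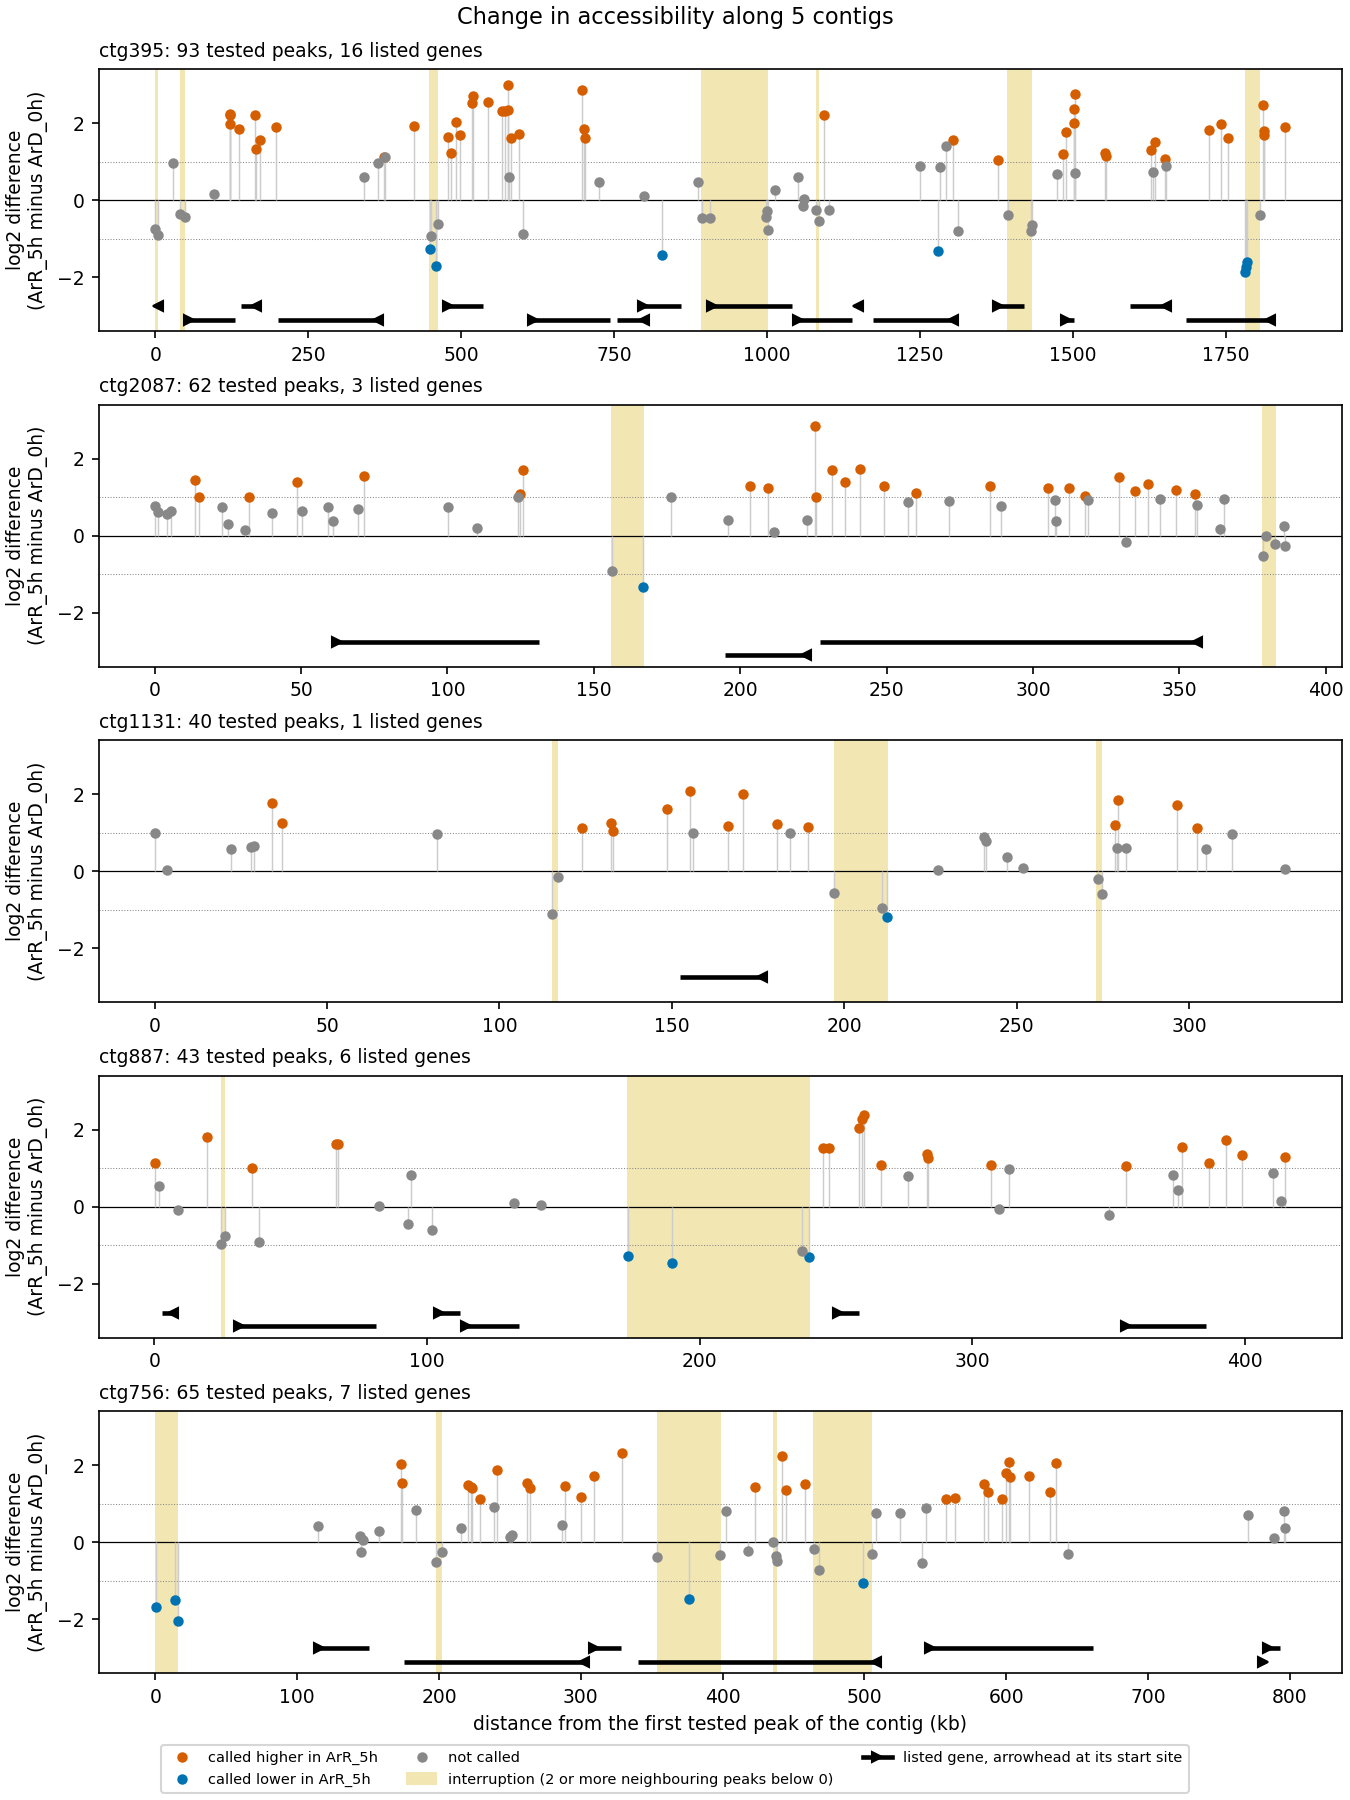
Log2 difference (ArR_5h minus ArD_0h, vertical axis) of every tested peak against its distance from the first tested peak of its contig in kb, with shaded interruptions, black bars for listed genes and dotted lines at the limit of 1. Orange marks peaks called higher, as at 14 of the 24 neighbouring positive peaks in the middle of ctg2087, while 15 of the 17 blue peaks called lower sit inside interruptions.

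The span of a contig is given from its first to its last peak or listed gene. On ctg395, with the longest span of the 5 at 1.85 Mb, 65 of 93 tested peaks had a positive difference, 46 were called higher and 7 lower. After a few peaks of mostly negative sign came a run of 14 peaks from 118343 to 446245 with a mean of 1.51, of which 10 were called higher. The run held all 8 peaks listed for evm.TU.ctg395.6, every one of them called higher, with a mean log2 difference of 1.91. Of these 8 peaks, 2 overlapped the gene. The study's terms for this gene name the regulation of cell division and the gap junction, a channel between touching cells. The peak over its TSS, from 187352 to 188079, had 25.2, 19.6 and 21.2 CPM in ArR_5h replicates 1, 2 and 3 and 5.84, 10.7 and 9.69 CPM in ArD_0h replicates 1, 2 and 3. The groups did not overlap, and ArD_0h replicate 1 was lowest. Its log2 difference was 1.34 (standard error 0.299), and its call was lost when a trend with level was removed and ArD_0h replicate 1 left out together.

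The first interruption of 3 or more peaks on ctg395 lay from 470679 to 484507, 16170 to 29579 bp upstream of the TSS of evm.TU.ctg395.10. Its 4 peaks had a mean of -1.13, and 2 were called lower. The lowest, from 481399 to 481741, had 1.80, 2.01 and 2.62 CPM in ArR_5h and 8.07, 7.03 and 5.51 CPM in ArD_0h, so all ArR_5h libraries lay below all ArD_0h libraries. The other, from 470679 to 471098, had a log2 difference of -1.27. Directly after it came the run with the highest mean among those of 5 peaks or more, 14 peaks from 500371 to 617344 with a mean of 2.02, of which 13 were called higher. This run began at the TSS of evm.TU.ctg395.10, where the peak had 41.4, 34.4 and 32.4 CPM in ArR_5h and 2.64, 16.5 and 15.6 CPM in ArD_0h. The groups were apart, but ArD_0h replicate 1 stood far below the other ArD_0h libraries there, and this call too was lost under that joint setting. Of the 12 peaks listed for this gene, 8 were called higher and 2 lower.

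The same run held the peak with the largest difference on the 5 contigs, from 599399 to 599683. It had 13.8, 13.5 and 11.8 CPM in ArR_5h and 1.67, 1.53 and 1.71 CPM in ArD_0h, a log2 difference of 2.99 (standard error 0.320). The libraries of each group were close to each other at this peak, ArD_0h replicate 1 included. Its neighbour from 598316 to 599201 had 66.6, 49.3 and 48.4 CPM in ArR_5h and 8.35, 9.17 and 14.8 CPM in ArD_0h, with a log2 difference of 2.35. Both lay between the end of evm.TU.ctg395.10 and the next listed gene, the first 40469 bp upstream of the TSS of the joined gene model evm.TU.ctg395.14_evm.TU.ctg395.12. Of the 11 peaks listed for that model 9 were called higher, while the one nearest to its TSS, 15756 bp upstream, had -0.87 and was not called.

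The third large peak of ctg395, inside evm.TU.ctg395.10 from 542364 to 542700, had 21.6, 15.2 and 14.4 CPM in ArR_5h and 1.39, 2.75 and 3.99 CPM in ArD_0h, a log2 difference of 2.69 (standard error 0.341). All ArR_5h libraries lay above all ArD_0h libraries.

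The middle of ctg395 differed from its ends. Of the 25 tested peaks between the gain runs that ended at 821627 and began at 1495657, 3 were called higher and 2 lower. One of the lower peaks, 29406 bp upstream of evm.TU.ctg395.15 and inside its neighbour evm.TU.ctg395.16, had 3.38, 6.37 and 5.81 CPM in ArR_5h and 17.0, 10.1 and 14.1 CPM in ArD_0h. The other, from 1302139 to 1302361 inside evm.TU.ctg395.23, had 1.69, 1.42 and 2.25 CPM in ArR_5h and 5.84, 3.67 and 3.61 CPM in ArD_0h. The groups did not overlap at either. The second lost its call without ArD_0h replicate 1, without ArR_5h replicates 1 or 2 and with the level trend removed. The longest interruption of all, 5 peaks over 109016 bp from 915082 to 1024097, lay here with a mean of -0.48 and no called peak. Another, 3 peaks from 1415399 to 1455370 in and beyond evm.TU.ctg395.24, had a mean of -0.61 and likewise no called peak. A stretch of 148732 bp without any tested peak separated the peaks listed for evm.TU.ctg395.21 and evm.TU.ctg395.23, and a gap of 143873 bp lay mostly within the long gene evm.TU.ctg395.9.

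From 1495657 to 1776242 on ctg395 the differences were positive over 17 neighbouring peaks (mean 1.45), of which 13 were called higher. The run covered evm.TU.ctg395.25, which the study annotates with DNA-binding transcription factor activity and the cell cycle. The peak over its TSS, from 1510943 to 1511420, had 33.3, 32.2 and 31.3 CPM in ArR_5h and 5.15, 11.5 and 12.2 CPM in ArD_0h, a log2 difference of 1.76 (standard error 0.323). A peak just past the end of the gene, from 1525361 to 1526029, had 26.0, 22.9 and 29.4 CPM in ArR_5h and 2.64, 4.59 and 4.37 CPM in ArD_0h, a log2 difference of 2.76 (standard error 0.316). At both peaks the groups were apart, and 7 of the 9 peaks listed for this gene were called higher. Only 1 of the 9 overlapped the gene. Of the 6 peaks listed for evm.TU.ctg395.26, annotated with protein binding, 4 were called higher, and 3 of these overlapped the gene. The one nearest to its TSS, 153 bp upstream, had 0.88 and was not called.

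Within evm.TU.ctg395.30, annotated with the binding of heparan sulfate proteoglycans (sugar-bearing proteins of the cell surface and matrix), the direction changed 2 times. The 10 tested peaks listed for it, of which 9 overlapped it, included 6 called higher and 3 called lower. The lower ones lay side by side in an interruption of 4 peaks from 1803195 to 1828771 (mean -1.39), with higher peaks on each side. The peak from 1803195 to 1804063 had 8.78, 11.3 and 11.6 CPM in ArR_5h and 35.9, 36.5 and 42.6 CPM in ArD_0h, a log2 difference of -1.86 (standard error 0.293). All ArR_5h libraries lay below all ArD_0h libraries, and the ArD_0h libraries were close together. The other lower peaks, at 1804579 and 1807079, had -1.72 and -1.60. The peak that followed the interruption, from 1832804, had 2.48, and the peak nearest to the TSS, 8872 bp inside the gene, had 1.69. The call nearest to the TSS was lost without ArR_5h replicate 1.

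On ctg2087, 386288 bp long between its first and last peak, 55 of 62 tested peaks had a positive difference, 25 were called higher and 1 lower. The contig held 2 gain runs of over 20 peaks, the first of 22 peaks from 2380 to 128328 (mean 0.82) and the second of 24 peaks from 178446 to 332002 (mean 1.11), the one with most peaks on the 5 contigs. All 22 peaks listed for evm.TU.ctg2087.3 made up the first run, and 7 were called higher. Of the 7 peaks that overlapped this gene, 3 were called higher. Its peak from 15453 to 17218, 47531 bp upstream of the TSS, had 320.3, 298.9 and 266 CPM in ArR_5h and 80.0, 122 and 125 CPM in ArD_0h. That is a log2 difference of 1.44 (standard error 0.219) with no overlap of the groups. Its peak 767 bp upstream of the TSS had 96.2, 87.5 and 94.5 CPM in ArR_5h and 83.6, 65.4 and 65.7 CPM in ArD_0h, and at 0.37 it was not called.

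The second run of ctg2087 covered the genes evm.TU.ctg2087.7 and evm.TU.ctg2087.8. Of the 18 peaks listed for evm.TU.ctg2087.7, 10 were called higher and 1 lower. Only 4 of the 18 overlapped this gene, and 2 of those 4 were called higher. Those from 233337 onward lay inside its neighbour evm.TU.ctg2087.8. The peak with the largest difference, from 227746 to 228012 and 3031 bp upstream of its TSS, had 13.6, 11.2 and 9.93 CPM in ArR_5h and 0.278, 2.60 and 2.09 CPM in ArD_0h, a log2 difference of 2.84 (standard error 0.410). The peak from 233337 to 233949, listed for evm.TU.ctg2087.7 but inside evm.TU.ctg2087.8, had 32.1, 29.9 and 27.7 CPM in ArR_5h and 4.59, 12.997 and 9.88 CPM in ArD_0h. A peak inside evm.TU.ctg2087.3 from 127919 to 128328 had 39.8, 37.9 and 32.4 CPM in ArR_5h and 4.73, 13.9 and 15.6 CPM in ArD_0h. ArD_0h replicate 1 was lowest at all 3, and the groups were apart. The peak nearest to the TSS of evm.TU.ctg2087.7, 475 bp upstream, had 0.42 and was not called.

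Of the 22 peaks of evm.TU.ctg2087.8, 8 were called higher, all inside the gene. Its TSS peak had 24.6, 17.9 and 17.4 CPM in ArR_5h and 4.87, 14.2 and 15.8 CPM in ArD_0h, and at 0.80 it was not called. The groups did not overlap there, and ArD_0h replicate 1 was far below the other ArD_0h libraries. The single lower peak of ctg2087, from 169235 to 169434, had 1.69, 1.42 and 1.69 CPM in ArR_5h and 4.17, 3.06 and 4.94 CPM in ArD_0h. It lay in an interruption of 2 peaks from 158299 to 169434 between the long runs, and it lost its call without any 1 of the ArR_5h libraries or ArD_0h replicate 3, with the level trend removed and with the replicate number as a block. The other interruption, 3 peaks from 380639 to 385181 near the end of the contig, had a mean of -0.25 and no called peak.

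On ctg1131, with the shortest span of the 5 at 328153 bp, 33 of 40 tested peaks had a positive difference, 15 were called higher and 1 lower. A single gene is listed, evm.TU.ctg1131.1, which the study annotates with the regulation of transcription, metal ion binding and acyltransferase activity (the transfer of acyl groups). The 11 peaks from 133493 to 199590, which span this gene, had a mean of 1.33, and 9 were called higher. The peak from 165011 to 165399 inside the gene had 9.11, 15.7 and 8.997 CPM in ArR_5h and 3.48, 1.53 and 3.04 CPM in ArD_0h, a log2 difference of 2.07 (standard error 0.344). The peak from 180405 to 180801, also inside it, had 26.2, 26.1 and 20.8 CPM in ArR_5h and 2.36, 8.41 and 7.60 CPM in ArD_0h, a log2 difference of 2.01 (standard error 0.352). The groups were apart at both, with ArD_0h replicate 1 highest of its group at the one and lowest at the other.

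Beyond the end of the gene, 141967 bp downstream of the TSS, the peak of ctg1131 from 43811 to 44148 had 13.5, 12.9 and 14.6 CPM in ArR_5h and 2.36, 4.89 and 4.94 CPM in ArD_0h, a log2 difference of 1.76. No peak lay over the TSS of evm.TU.ctg1131.1, and the nearest, 4000 bp upstream, had 18.1, 22.2 and 14.8 CPM in ArR_5h and 4.31, 10.9 and 8.74 CPM in ArD_0h. It was called higher at 1.22, and it lost its call without ArD_0h replicate 1 and with the level trend removed. Upstream of the gene an interruption of 3 peaks from 206798 to 222532 had a mean of -0.90. Its called peak, from 222247 to 222532, had 1.01, 2.12 and 3.94 CPM in ArR_5h and 3.76, 5.35 and 6.46 CPM in ArD_0h. The groups overlapped there, and the call was lost without any 1 of ArR_5h replicates 1 and 2 or ArD_0h replicates 2 and 3. Removing the level trend or scaling by the library totals lost it too.

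On ctg887, with a span of 415216 bp, 31 of 43 tested peaks had a positive difference, 20 were called higher and 3 lower. Without ArR_5h replicate 1 the higher calls numbered 13. An interruption of 4 peaks over 66893 bp from 173625 to 240517 (mean -1.30), of which 3 were called lower, divided the contig. Of the 16 peaks to its left 10 were positive and 5 called higher, and of the 23 peaks to its right 21 were positive and 15 called higher. Its first peak, from 173625 to 173824, had 1.69, 1.77 and 2.06 CPM in ArR_5h and 3.90, 3.98 and 5.51 CPM in ArD_0h. The call of this first peak was lost without ArR_5h replicates 1 or 2 or ArD_0h replicate 3, and with the level trend removed. Its peak from 189603 to 189943 had 1.24, 1.53 and 2.06 CPM in ArR_5h and 7.23, 2.60 and 3.23 CPM in ArD_0h. Its last peak, from 240037 to 240517, had 4.28, 3.54 and 4.12 CPM in ArR_5h and 12.1, 6.73 and 10.8 CPM in ArD_0h. The groups were apart at all 3. The peak at 189603 lost its call without ArD_0h replicate 1, without ArR_5h replicates 1 or 2, with the level trend removed and with the replicate number as a block, and the peak at 240037 kept it without any 1 library.

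Only 4594 bp after this last lower peak the sign turned. The peak from 245112 to 245531 had 26.4, 21.7 and 18.2 CPM in ArR_5h and 5.70, 10.2 and 7.03 CPM in ArD_0h, a log2 difference of 1.53 against -1.31 in its neighbour. This was the shortest gap among 3 places on the 5 contigs where a peak called higher and a peak called lower were next to each other with no other peak between them, and the others, both on ctg395, had gaps of 24433 and 26952 bp.

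The run that began there, 10 peaks from 245112 to 307013 with a mean of 1.53, had 9 called higher. It surrounded evm.TU.ctg887.7, which the study annotates with lipid transport, lipid binding and the metabolism of lipoproteins, the particles that carry lipids between tissues and from yolk. The peak from 258953 to 259953, just past the end of this gene, had 159, 129 and 137 CPM in ArR_5h and 11.4, 40.4 and 35.9 CPM in ArD_0h, a log2 difference of 2.28 (standard error 0.330). The groups were apart and ArD_0h replicate 1 was far below the other ArD_0h libraries. The peak from 260144 to 260431 had 41.1, 27.7 and 29.4 CPM in ArR_5h and 1.81, 10.1 and 7.22 CPM in ArD_0h, a log2 difference of 2.37. The peak from 258273 to 258607, over the end of the gene, had 49.4, 43.0 and 46.1 CPM in ArR_5h and 4.59, 13.3 and 15.96 CPM in ArD_0h, a log2 difference of 2.04.

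Of the 12 peaks listed for evm.TU.ctg887.7, 8 were called higher and 2 lower, and only 1 of the 12 overlapped the gene. The peak nearest to its TSS, 2866 bp upstream from 247355 to 247924, had 89.8, 76.3 and 74.98 CPM in ArR_5h and 7.23, 41.7 and 35.5 CPM in ArD_0h, a log2 difference of 1.52. The spread within ArD_0h was wide there, with replicate 1 lowest, and the call was lost with the level trend removed and that library left out. At the right end of ctg887, 7 of the 14 peaks listed for evm.TU.ctg887.10 were called higher, and 2 of these overlapped the gene. Its TSS peak was called higher with 49.2, 48.2 and 41.6 CPM in ArR_5h and 11.0, 28.0 and 28.3 CPM in ArD_0h. The groups did not overlap. That call, at 1.05, was lost without ArD_0h replicate 1, without ArR_5h replicates 1 or 2 and with the level trend removed.

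On ctg756, 46 of 65 tested peaks had a positive difference, 28 were called higher and 5 lower. The contig opened with an interruption of 3 peaks from 61433 to 77432 (mean -1.74), all called lower, 99101 to 114238 bp upstream of the TSS of evm.TU.ctg756.4. The first had 17.0, 26.3 and 36.9 CPM in ArR_5h and 104, 75.8 and 75.4 CPM in ArD_0h, a log2 difference of -1.67 (standard error 0.295). The second, from 74899 to 75245, had a log2 difference of -1.49. The third, from 76981 to 77432, had 1.13, 1.42 and 1.87 CPM in ArR_5h and 4.73, 3.52 and 10.1 CPM in ArD_0h, the lowest log2 difference on the 5 contigs at -2.05 (standard error 0.453). The groups were apart at all 3, and none lost its call without any 1 library. Among the 13 peaks listed for evm.TU.ctg756.4, of which 4 overlapped it, there were thus 3 lower and 2 higher. Its TSS peak, at 0.41, was not called. One of the higher peaks, from 234274 to 234668, had 18.3, 15.5 and 23.8 CPM in ArR_5h and 2.92, 7.65 and 3.42 CPM in ArD_0h, a log2 difference of 2.03.

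The longest gain run of ctg756, 16 peaks from 276803 to 391175 with a mean of 1.18 and 11 called higher, covered evm.TU.ctg756.5 and evm.TU.ctg756.6. The 14 peaks of evm.TU.ctg756.5 all lay inside the gene, all were positive, and 9 were called higher. The one nearest to its TSS, 1642 bp inside the gene, had 80.7, 80.6 and 74.98 CPM in ArR_5h and 9.88, 48.2 and 47.3 CPM in ArD_0h. Its call, at 1.17, was lost without ArD_0h replicate 1, without ArR_5h replicates 1 or 2 and with the level trend removed. The TSS peak of evm.TU.ctg756.6 had 68.9, 56.0 and 55.3 CPM in ArR_5h and 9.60, 19.9 and 26.0 CPM in ArD_0h, a log2 difference of 1.70 (standard error 0.320), with the groups apart. The run ended just past this gene with the peak from 390456 to 391175, which had 34.5, 39.4 and 30.4 CPM in ArR_5h and 4.87, 9.17 and 7.03 CPM in ArD_0h, a log2 difference of 2.31 (standard error 0.315). All ArR_5h libraries lay above all ArD_0h libraries.

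The stretch of ctg756 that followed held 3 interruptions of 3 or more peaks. From 414980 to 460025 the mean was -0.73, and the peak from 437326 to 438029 was called lower with 4.28, 3.78 and 4.87 CPM in ArR_5h and 15.4, 10.4 and 10.1 CPM in ArD_0h. From 496938 to 500027 the mean was -0.28 with no called peak, and from 525430 to 566925 it was -0.57 with 1 peak called lower, at 560555 and -1.06. That call was lost without ArR_5h replicates 2 or 3 and without ArD_0h replicates 2 or 3. It was also lost with the level trend removed and with scaling by the library totals. These stretches lay inside Loco (evm.TU.ctg756.7), which belongs to the regulators of G-protein signaling, proteins that switch off G proteins after a receptor has turned them on.

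Of the 14 peaks listed for Loco, 4 were called higher and 1 lower. The lower peak from 437326 to 438029, at -1.49, also lay inside this gene but is listed for evm.TU.ctg756.6. The peak from 503224 to 503543 inside the gene had 10.1, 11.0 and 11.8 CPM in ArR_5h and 2.09, 2.75 and 2.09 CPM in ArD_0h, a log2 difference of 2.23 (standard error 0.311). The libraries of each group were close together. The TSS peak of Loco had 16.7, 17.9 and 14.4 CPM in ArR_5h and 4.87, 11.9 and 12.7 CPM in ArD_0h, and at 0.75 it was not called. Further on, 12 neighbouring peaks from 604828 to 696454 had a mean of 1.48, and 11 were called higher, all of them inside evm.TU.ctg756.9. The peak nearest to the TSS of that gene, 2798 bp upstream, had 0.90 and was not called. After a gap of 125856 bp the last 4 peaks, from 830973 to 858360, were positive with a mean of 0.49 and no call.

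**Figure D3:**
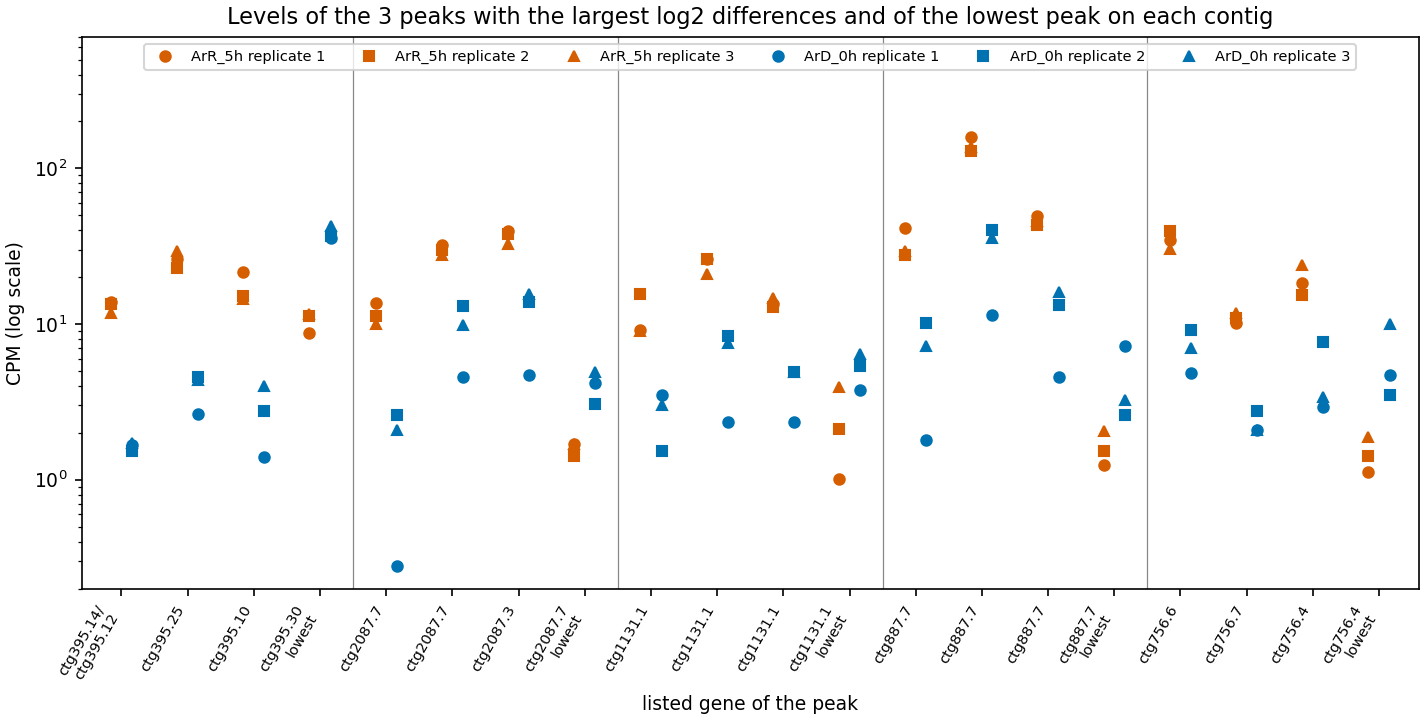
CPM on a log scale of the 3 peaks with the largest log2 differences among those with a mean of at least 5.48 CPM, and of the peak with the lowest difference, on each contig, for the 3 ArR_5h libraries (orange) and the 3 ArD_0h libraries (blue), with one symbol per replicate and the listed gene below. The ArR_5h points lie above the ArD_0h points at the 15 largest peaks, which the choice of these peaks by that difference favours. ArD_0h replicate 1 (blue circles) reaches 0.278 CPM at a peak listed for evm.TU.ctg2087.7.

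Neighbouring peaks had like differences more often the closer they lay. Over the 298 pairs of neighbouring peaks on the 5 contigs, Pearson's r of the log2 differences was 0.47, and 76.2% of pairs had the same sign. In pairs up to 5000 bp apart r was 0.61 (133 pairs), above 5000 and up to 20000 bp it was 0.40 (116 pairs), and beyond 20000 bp it was 0.21 (49 pairs). On the other contigs with at least 40 tested peaks the same values were 0.36 over 91245 pairs, with 0.55, 0.28 and 0.14 in the 3 distance groups and 62.1% of the same sign. These are descriptions across peaks that share the same 6 libraries, and the mean of the chosen contigs raises the share of equal signs. On ctg395 r was 0.52, and on ctg2087, where nearly all peaks were positive, it was 0.21.

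The gene models listed around these peaks were unevenly spread over the contigs. The table lists 33 genes on the 5 contigs, of 12010 in all, with 16 on ctg395, 3 on ctg2087, 1 on ctg1131, 6 on ctg887 and 7 on ctg756. Only genes assigned to a peak are listed, and the numbers in the gene IDs run up to 30 on ctg395, 8 on ctg2087, 10 on ctg887 and 13 on ctg756, so other gene models may lie between them. The density per Mb of the span was 8.66 listed genes on ctg395, 7.77 on ctg2087, 3.05 on ctg1131, 14.5 on ctg887 and 8.78 on ctg756. In order from the densest of the 895 contigs these were ranks 283, 409, 862, 16 and 272, and the other 890 contigs had a median of 7.46 and ran from 1.24 to 19.8. The 5 contigs thus included one of the densest and one of the sparsest, as the plot of gene density against the mean change shows.

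The share of the span inside listed genes varied as widely. It was 62.4% on ctg395, 58.2% on ctg2087 and 59.3% on ctg756, above the median of 42.6% of the other contigs, but 28.4% on ctg887 and 7.26% on ctg1131. In total 16 of the 33 genes were longer than 50000 bp. On ctg887 the genes were many but short, with a median length of 13604 bp against a median of 44886 bp over the other contigs, and on ctg2087 the median length was 68809 bp.

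**Figure D4:**
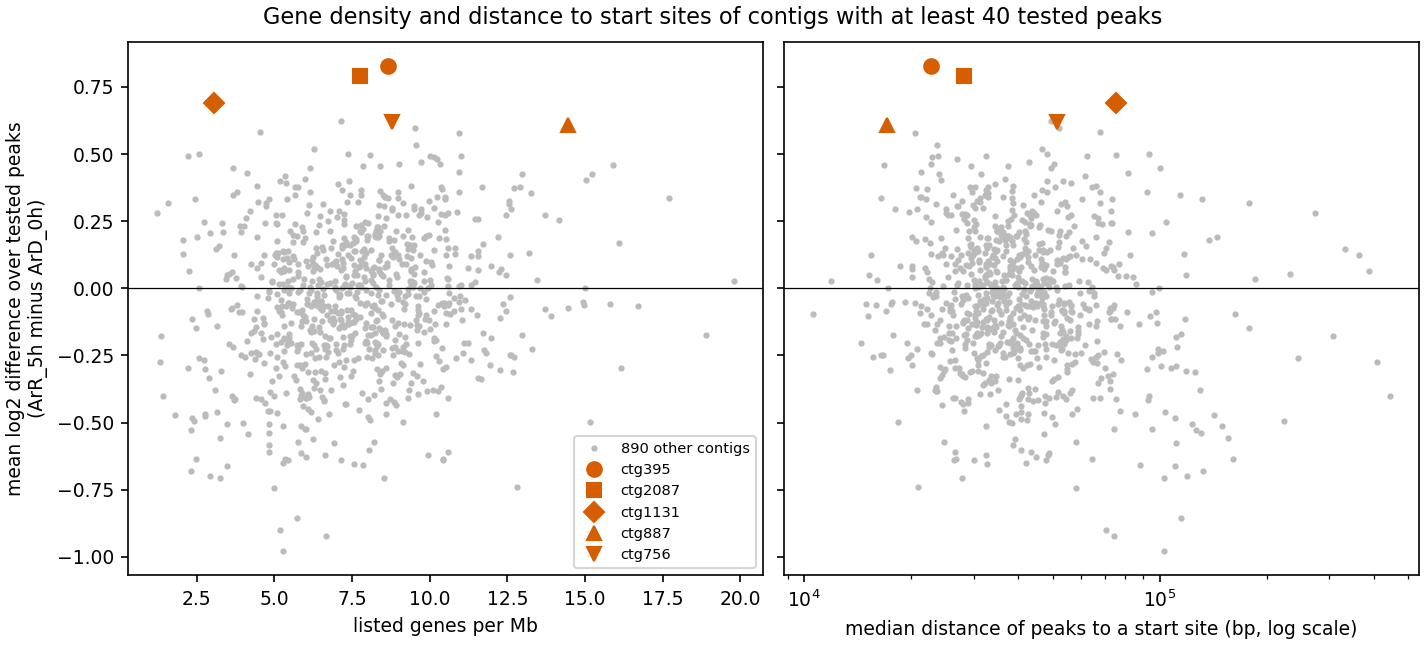
Mean log2 difference over tested peaks (ArR_5h minus ArD_0h, vertical axis) of 895 contigs against listed genes per Mb (left) and the median distance of peaks to a TSS in bp on a log axis (right), with the 5 contigs as large orange symbols and the other 890 as grey points. Along the horizontal axes the 5 contigs are spread from 3.05 to 14.5 genes per Mb and from 17071 to 75393 bp.

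The distances to start sites also lay on both sides of the median of the other contigs. The median distance of a peak to the TSS of its listed gene was 22757 bp on ctg395, 28200 bp on ctg2087, 75393 bp on ctg1131, 17071 bp on ctg887 and 51574 bp on ctg756, beside a median of 38990 bp over the other contigs. In order from the farthest these were ranks 830, 731, 82, 880 and 239 of 895. Peaks over a TSS numbered 7 on ctg395, 1 on ctg2087, 0 on ctg1131, 1 on ctg887 and 3 on ctg756. Distal peaks, more than 3000 bp from a TSS and outside listed genes, made up 40.4, 40.3, 90.2, 69.8 and 18.5% in the same order, and peaks inside genes 45.7, 51.6, 9.76, 20.9 and 72.3%. Over all 895 contigs the mean log2 difference had r of 0.16 with genes per Mb, 0.26 with the share of the span in genes and -0.12 with the median distance (Spearman's rho 0.15, 0.23 and -0.10). These too are descriptions across contigs of the same 6 libraries.

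Peaks were spaced differently on each contig. There were 50.9 peaks per Mb of the span on ctg395, rank 846 from the densest, and 160.5 on ctg2087, rank 25. The values were 125 on ctg1131, 104 on ctg887 and 81.6 on ctg756. The median peak width was 324, 339.5, 383, 326 and 388 bp in the order ctg395, ctg2087, ctg1131, ctg887 and ctg756, beside 327 bp over the other contigs.

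Over the 5 contigs together the mean difference was positive in every class of distance from a TSS. The mean log2 difference was 0.98 over a TSS (12 peaks), 0.62 up to 3000 bp (16 peaks), 0.76 above that and up to 10000 bp (36 peaks), 0.68 up to 30000 bp (81 peaks), 0.75 up to 100000 bp (140 peaks) and 0.63 beyond (18 peaks, 16 of them on ctg1131). On ctg756 alone it was -0.50 over the 3 peaks of the third class and -1.58 over the 2 farthest peaks. On the other contigs the same classes had 0.68, 0.08, 0.00, -0.05, -0.08 and -0.22, so the mean fell with distance there and varied little over the 5 contigs pooled. Within single contigs it varied more. On ctg1131 it was 1.35 above 3000 and up to 10000 bp, 0.15 above 30000 and up to 100000 bp and 0.91 beyond. The gap between the sets was smallest over a TSS, where peaks of the other contigs also had positive differences. The contigs were chosen for a high mean over their peaks, and 12 of the 303 tested peaks lay over a TSS. That choice favoured high means in the classes away from a TSS, so nothing is drawn from this contrast with the other contigs. Peaks inside genes had a mean of 0.84 on the 5 contigs and 0.04 elsewhere, and distal peaks 0.61 and -0.19. When the mean of its distance class over all tested peaks was subtracted from each peak, the contig means were 0.82, 0.83, 0.81, 0.62 and 0.65 on ctg395, ctg2087, ctg1131, ctg887 and ctg756. The mean of ctg1131, with most of its peaks far from a TSS, moved most, against 0.69 before.

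**Figure D5:**
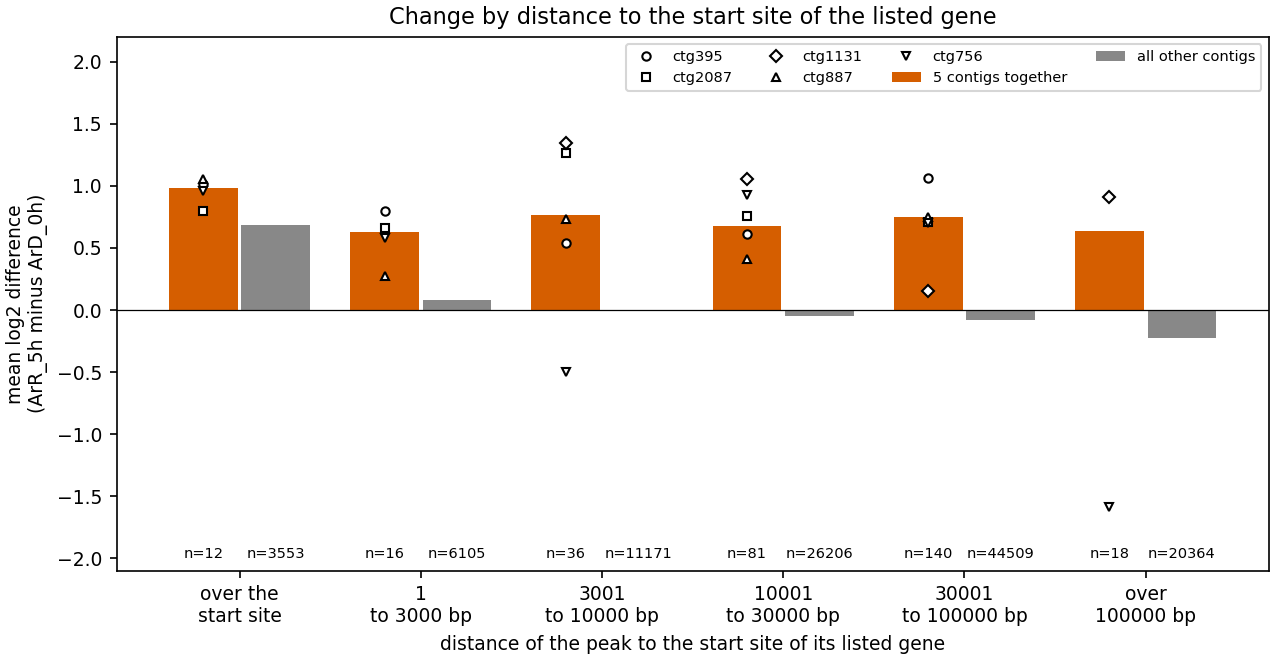
Mean log2 difference (ArR_5h minus ArD_0h, vertical axis) by the distance of a peak to the TSS of its listed gene, for the 5 contigs together (orange bars), all other contigs (grey bars) and each of the 5 contigs (open symbols), with the number of peaks below. The orange bars stay between 0.62 and 0.98, while the grey bars run from 0.68 over a TSS to -0.22 beyond 100000 bp. The lowest symbol is that of 2 peaks of ctg756. The 5 contigs were chosen on this contrast.

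None of the 17 lower peaks lay within 3000 bp of a TSS, beside 12 of the 134 higher peaks (8.96%), and 9.24% of the 303 tested peaks and 8.63% of all tested peaks lay that close. The share of the higher peaks was thus near that of all peaks, and the lower peaks were few. On the other contigs lower calls were rarer near a TSS than farther away. They made up 0.985% of peaks over a TSS and 7.06% up to 3000 bp, against 11.4 to 22.3% in the farther classes. The median distance was 34119.5 bp for the higher and 38875 bp for the lower peaks, and 7 lower and 69 higher peaks lay inside genes. The higher peaks had a median width of 381.5 bp with median levels of 12.5 CPM in ArR_5h and 4.06 CPM in ArD_0h, and the lower ones a median width of 347 bp with 2.56 CPM in ArR_5h and 6.87 CPM in ArD_0h. The 55 peaks in interruptions had medians of 3.98 CPM in ArR_5h and 6.38 CPM in ArD_0h, and 31 of them were distal.

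By gene, 23 of the 33 listed genes had at least 1 higher peak and 11 at least 1 lower peak, among them 9 with both. A further 8 had neither. Over all 12002 listed genes with a tested peak, 51.2% had a higher peak, 52.9% a lower peak, 28.3% both and 24.2% neither, against 69.7, 33.3, 27.3 and 24.2% on the 5 contigs, and both sets had a median of 7 tested peaks per gene. For 20 of the 33 genes the mean log2 CPM over their peaks was above that of every ArD_0h library in every ArR_5h library. The share of all listed genes that do so was not counted. The choice of the contigs on this contrast favoured it, so nothing is drawn from this count. A peak lay over the TSS of 12 genes, and 7 of these peaks were called higher and none lower. Over the 3553 start-site peaks of the other contigs 27.4% were called higher and 0.985% lower. The study drew the genes with functional terms named here from a comparison that included the ArD_0h libraries, and the direction of their peaks here is therefore no independent evidence. Of the genes with the most higher peaks listed for them, evm.TU.ctg1131.1 had 15 of 40, evm.TU.ctg756.9 11 of 14, evm.TU.ctg2087.7 10 of 18, and evm.TU.ctg756.5 and evm.TU.ctg395.14_evm.TU.ctg395.12 had 9 each. The higher peaks that overlapped the gene itself numbered 3, 11, 2, 9 and 3 in the same order.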

How the data were processed

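The authors mapped paired-end ATAC-seq reads to the *A. franciscana* assembly ASM3288406v1 with BWA after trimming with skewer, removed poorly mapped, mitochondrial and duplicate reads, called peaks with MACS2 and assigned each peak to a gene with ChIPseeker. The deposited table of merged peaks holds raw counts per peak and library, which were tested here, and RPM values made by the authors, used here only for the library totals behind them. Coordinates are those of that table, 0 per-sample columns were left unmapped, and its columns of the authors' own comparison (fold changes and p-values) were not used.

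Counts of all 112790 peaks were fitted with edgeR 4.0.16 (R 4.3.3, limma 3.58.1) with TMM scaling, filterByExpr and the quasi-likelihood test, ArR_5h against ArD_0h with no covariate, and 112211 peaks were tested. Calls needed an adjusted p within 0.05 together with a log2 difference over 1 in either direction. CPM are counts per 1000000 after TMM scaling, and log2 CPM used a prior count of 2. Summaries were made with Python 3.11.15, numpy 2.4.6, pandas 2.3.3, scipy 1.17.1 and matplotlib 3.10.9. The fit was tested on simulated data.

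The contigs, tests and lists were chosen with earlier results of these data known. The peaks named were, per contig, the 3 with the largest log2 differences among those at or above the median level of all tested peaks (5.48 CPM), the lowest, every peak called lower and every interruption of 3 or more peaks. Genes named were the 2 with most higher peaks per contig and those in the part held here of the study's list of genes with functional terms, each by the peak nearest to its TSS. Other peaks named were chosen after their values were seen. Alternatives were DESeq2 1.42.0, scaling by RPM totals, no filter, removal of a trend with level (loess span 0.3), a replicate block, each library left out in turn, medians over peaks, summed counts, subtraction of distance class means and calls on the log2 difference alone.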

Additional observations from a re-analysis of the deposited data

How the results depend on the processing

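The 5 contig means stayed positive under every alternative run. Leaving out each library in turn gave means of 0.72 to 0.97 on ctg395, 0.74 to 0.88 on ctg2087, 0.58 to 0.83 on ctg1131, 0.51 to 0.74 on ctg887 and 0.53 to 0.74 on ctg756, and 32 to 49, 18 to 28, 10 to 20, 13 to 21 and 24 to 30 higher peaks in the same order. The totals were then 98 to 146 higher and 11 to 20 lower peaks, against 134 and 17 with all libraries, and 84 of the 134 were called higher in all 6 of these fits. The mean of ctg2087 was 0.95 with scaling by the RPM totals and 0.95 as a ratio of summed counts, against 0.79. The median over peaks was 1.07 on ctg395 and 0.88 on ctg887, where the ratio of summed counts was 1.14 and the mean 0.61. Scaling by RPM totals moved the median of all peaks to 0.09, against -0.07, and called 21190 higher and 11934 lower, against 16261 and 17091. On the 5 contigs it called 156 higher and 15 lower. DESeq2 called 138 and 17. An alternative chosen after seeing the data, removal of the trend with level without ArD_0h replicate 1, called 93 higher, of which 14 were on ctg2087, 9 on ctg1131, 11 on ctg887 and 18 on ctg756. The cause of these shifts was not tested.

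With the replicate number as a block, 137 peaks were called higher and 15 lower, and the contig means were 0.86, 0.82, 0.72, 0.65 and 0.65. The labels give no pairing beyond a shared number. Same-numbered samples had correlations of -0.21, 0.00 and -0.15 between their deviations from the group means, and samples with different numbers had -0.11 to 0.19. Deviations from a group mean are tied to each other, so these values cannot settle whether the samples were paired. Of the 303 tested peaks, 46 changed sign under at least 1 alternative fit, none of them called higher or lower, and most often in the added alternative (29 peaks) and without ArD_0h replicate 1 (19 peaks). The named peaks among them were uncalled and lay in interruptions. The peak on ctg2087 from 381691 to 381937, at -0.01, had 0.011 with DESeq2, 0.13 with RPM totals, 0.00045 with no filter, 0.39 with the trend removed, 0.026 with the block, -0.20 to 0.40 without 1 library and 0.091 under the added alternative. The peak on ctg756 from 496938 to 497137 had 0.027, 0.15, 0.018, 0.19 and 0.017 under the first 5 of these, -0.13 to 0.24 without 1 library and 0.011 under the added alternative. Under that alternative the peaks on ctg395 at 484279, 928679 and 1454427 had 0.085, 0.16 and 0.15, and that on ctg756 at 525430 had 0.47. Without 1 library the peak at 928679 had -0.65 to 0.076, that at 525430 -0.44 to 0.36 and that on ctg756 at 498680 -0.65 to 0.011. Of 40 named peaks with a call, 27 never lost it. With the block the lower calls on ctg2087 at 169235 and on ctg887 at 189603 were lost. Under the added alternative the calls near the TSS of evm.TU.ctg395.6, evm.TU.ctg395.10, evm.TU.ctg1131.1, evm.TU.ctg887.7, evm.TU.ctg887.10 and evm.TU.ctg756.5 were lost. So were the lower calls on ctg395 at 1302139, on ctg2087 at 169235, on ctg887 at 173625 and 189603 and on ctg756 at 560555.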
